A study of Mus musculus with 29 samples.

Results

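CD150lo HSC and CD150neg MPP were compared across all genes in 5A3+/del mice, by RNA-seq of cells sorted from bone marrow. The libraries were chosen by their labels alone, as those of the WT/DEL genotype in these populations. They comprised 5 libraries of CD150lo HSC and 4 of CD150neg MPP, which is 9 of the 29 libraries of the series. Both populations came from the same animal in 4 mice (mice 1 to 4). The series holds no CD150neg library of mouse 5. The CD150lo library of this mouse therefore entered the tests only through its difference from the CD150hi library of the same mouse. The mice were C57BL/6J and 12.42 to 13.85 weeks old, and their sex is not given in the labels. Cells of both groups carried the same heterozygous germ line deletion of the 5A3 interval, made by Cre recombination between loxP sites in embryonic stem cells, so the comparison is between cell populations and not between genotypes. Both populations were lineage-negative, Kit-positive and Sca-1-positive (KLS) and lacked CD41 and CD48 at the surface, and they differed in the level of surface CD150. WT mice, 12.42 to 13.28 weeks old, gave 5 libraries of each of these populations, which are given side by side.

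Hematopoietic stem cells maintain the blood by self-renewal, whereas multipotent progenitors keep the ability to form all lineages but renew themselves only for a limited time. CD150, a surface receptor of the SLAM family encoded by Slamf1, is high on the stem cells with the longest lasting output and is lost as cells become multipotent progenitors. The receptor tyrosine kinase FLT3 and the first transcripts of the lymphoid lineages are known to appear over the same steps. CD150lo HSC lie between the CD150hi stem cells and the CD150neg progenitors in this order.

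Values are normalized FPKM, that is, fragments per kilobase of exon scaled to the number of mapped fragments, after quantile normalization over all 29 libraries. Differences are CD150lo minus CD150neg on the log2(FPKM + 1) scale, on which weakly expressed genes appear to change less than they do. The 9 libraries held 23007700 to 31440442 fragments. Fragments of mitochondrial ribosomal RNA made up 25.1% to 29.1% in CD150lo HSC and 20.7% to 27.0% in CD150neg MPP. The Pearson correlation across genes was 0.917 to 0.963 between libraries of 1 population and 0.912 to 0.966 between libraries of different populations, so by this measure the populations were no further apart than replicates were. The 7 genes of the deleted interval that the study lists as expressed served as the check of genotype. Their ratio of the 5A3+/del to the WT mean had a median of 0.522 over the CD150lo HSC, and of 0.464 over the CD150neg MPP.

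The transcripts of the sorting markers were read first, as a check of the gates and not as a finding. Slamf1 was 0.244, 2.07, 1.00, 0.341 and 0.959 normalized FPKM in CD150lo HSC of mice 1 to 5, and 0.186, 0.106, 0.0524 and 0.0930 in CD150neg MPP of mice 1 to 4. The populations did not overlap, but mouse 1 and mouse 4 of the CD150lo HSC were close to the CD150neg MPP, and CD150hi HSC held 16.1 ± 4.54 (SD, n = 5). Kit (173 ± 20.5 in CD150lo HSC, n = 5, and 157 ± 18.1 in CD150neg MPP, n = 4) and Ly6a, the gene of Sca-1 (199 ± 25.7 and 192 ± 43.5), were abundant in both. Cd48 was low, with 3.46 ± 2.03 and 6.70 ± 2.54, and so was Itga2b, the gene of CD41, with 2.09 ± 0.493 and 1.66 ± 0.511. The T cell genes Cd3e and Cd8a did not exceed 0.131 FPKM, and the neutrophil gene Ly6g did not exceed 0.562 FPKM, in any of the 9 libraries.

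Few genes were called between CD150lo HSC and CD150neg MPP. With the mouse as a block, 2 of 15409 genes (0.013%) were called by limma at an adjusted p below 0.05: Gda, which encodes guanine deaminase, an enzyme of purine breakdown, was higher in CD150lo HSC, and Sstr2, which encodes a receptor for the peptide hormone somatostatin, was higher in CD150neg MPP. Without the block, 6 genes were called, 4 higher in CD150lo HSC and 2 higher in CD150neg MPP. At an unadjusted p below 0.05 the block gave 453 genes (2.94%) with more in CD150lo HSC and 500 genes (3.24%) with more in CD150neg MPP. Differences were small for most genes: 91.8% of genes lay within 0.5 and 1.19% lay beyond 1 on the log2 scale, and the median over all genes was 0.01. In simulated data of this design with 200 changed genes, 60.5% of changes of 1 and 93% of changes of 2 on the log2 scale were called. The simulated noise was normal and independent, and all changes were equal increases in CD150lo HSC. The share of real changes that was found is therefore not known. In the same 5A3+/del mice, 1036 genes (6.72%) were called between CD150hi HSC and CD150neg MPP and 602 (3.91%) between CD150hi HSC and CD150lo HSC. These contrasts were added after the values were seen and share libraries with the present one, and the counts were not tested against each other.

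**Figure D1:**
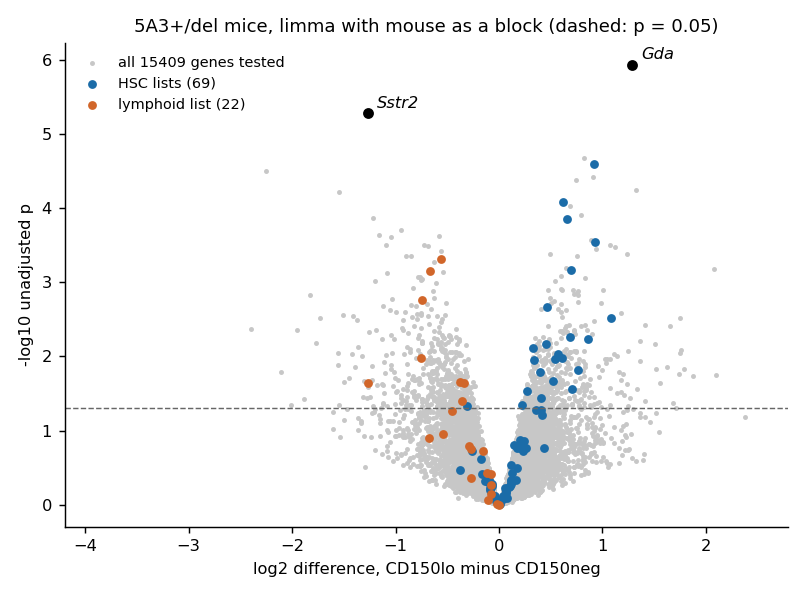
Log2 difference (CD150lo minus CD150neg, x axis) against the −log10 unadjusted p of limma (y axis) for the 15409 genes tested in 5A3+/del mice. Points of the HSC lists (69 genes, blue) lie mostly to the right of 0, points of the lymphoid list (22 genes, orange) to the left, and Gda and Sstr2 (black) stand highest.

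The promoters of the called genes are shown because these genes alone passed the test, and they are the RefSeq sequences of build GRCm38.p6 from 250 bases before to 50 bases after the start, on the strand of the gene. Capitals mark matches, on either strand, to a set of 6 short motifs that was chosen after the sequences were read. The Gda promoter lies at chr19:21472612-21472911 on the minus strand, and the Sstr2 promoter at chr11:113619077-113619376 on the plus strand.
Gda: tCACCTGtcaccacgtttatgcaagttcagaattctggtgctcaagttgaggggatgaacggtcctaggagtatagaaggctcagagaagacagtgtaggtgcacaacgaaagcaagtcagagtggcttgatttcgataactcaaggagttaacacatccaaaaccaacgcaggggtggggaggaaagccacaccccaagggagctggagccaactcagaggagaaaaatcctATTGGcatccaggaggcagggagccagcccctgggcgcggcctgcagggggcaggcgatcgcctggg
Sstr2: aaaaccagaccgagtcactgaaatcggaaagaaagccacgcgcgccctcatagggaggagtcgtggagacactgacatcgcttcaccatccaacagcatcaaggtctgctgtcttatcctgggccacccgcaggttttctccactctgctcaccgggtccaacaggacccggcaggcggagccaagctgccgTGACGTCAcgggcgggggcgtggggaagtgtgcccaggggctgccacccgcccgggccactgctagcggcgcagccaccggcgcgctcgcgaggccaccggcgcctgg
The motifs were TGACGTCA (the cAMP response element), CCAAT (bound by NF-Y), AGATAA (bound by factors of the GATA family), TGTGGT (RUNX factors), AGGAAG (ETS factors) and CACCTG (an E-box). The Sstr2 promoter held TGACGTCA, 58 bases before the start, and 1.79% of the 32851 promoters of the same length held this motif. The Gda promoter held CCAAT on the opposite strand, 17 bases before the start, and CACCTG near its far end, motifs present in 37.4% and 20.2% of promoters. AGATAA (11.2% of promoters), TGTGGT (16.8%) and AGGAAG (35.4%) were found in neither, and no matches overlapped. The Sstr2 promoter was also the richer in CpG, with 27 CpG against 9 in Gda and a median of 7 over all promoters. These matches describe the sequence and were not tested against expression.

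Gda was 9.77, 5.65, 9.38, 4.02 and 6.09 normalized FPKM in CD150lo HSC of mice 1 to 5, and 2.06, 1.20, 4.18 and 1.87 in CD150neg MPP of mice 1 to 4. Within each of the 4 mice the CD150lo library was the higher, although the lowest CD150lo value (mouse 4) lay just under the highest CD150neg value (mouse 3), so Gda is named as a called gene after its values were seen and not by the rule for separated genes. The means differed 3.00-fold, and the difference was 1.29 ± 0.18 (SE) on the log2 scale (adjusted p = 0.0180, limma). The values rest on 190 to 1397 fragments per library. In WT mice the difference had the same direction, at 0.69 (adjusted p = 0.110), and the unadjusted p for the difference between genotypes was 0.0255 (adjusted p = 0.820). CD150hi HSC of 5A3+/del mice held 21.1 to 34.3, so the CD150lo HSC lay between the other populations. The call was lost without mouse 1 or mouse 2, and without WT mouse 3, whose libraries share the estimate of the spread. Adjusted p ranged from 0.00910 to 0.809 over 20 alternatives. In mm9, Gda lies on chromosome 19 at 21465797 to 21547935, on the minus strand.

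Sstr2 was 0.256, 0.118, 1.34, 0.368 and 1.20 normalized FPKM in CD150lo HSC, and 2.96, 2.85, 2.51 and 2.11 in CD150neg MPP. The populations did not overlap, and every CD150neg library held more than the highest CD150lo library. The means differed 3.98-fold, and the difference was −1.27 ± 0.20 (adjusted p = 0.0405, limma). The gene is weakly expressed, and the CD150lo libraries rest on 3 to 79 fragments against 139 to 161 in CD150neg MPP. The WT libraries did not show this difference: CD150lo HSC held 2.35 ± 0.648 (n = 5) and CD150neg MPP 2.56 ± 0.978 (n = 5), a difference of −0.07. The unadjusted p for the difference between genotypes was 0.000324, but the adjusted p was 0.461, so the genotypes were not shown to differ. The call was lost when any of mice 1, 2, 4 and 5, or of WT mice 2 to 5, was left out. Adjusted p ranged from 0.0183 to 0.809 over 20 alternatives. In mm9, Sstr2 lies on chromosome 11 at 113480656 to 113487319, on the plus strand.

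**Figure D2:**
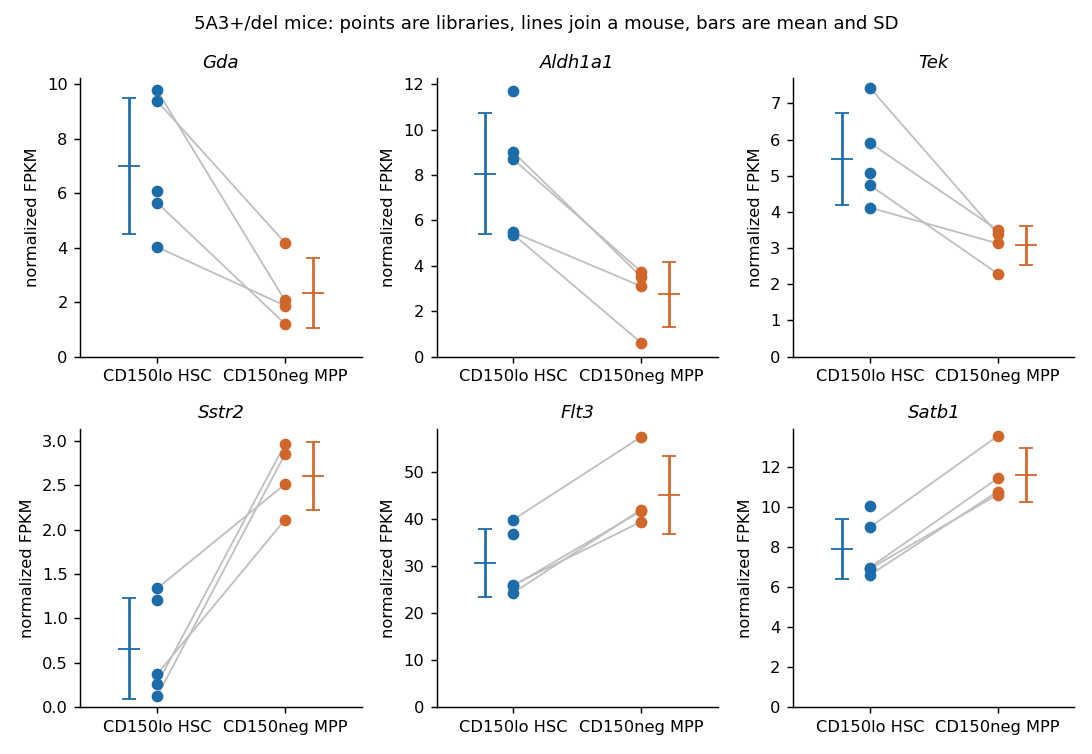
Normalized FPKM (y axis) of 6 genes in each library of CD150lo HSC (blue, n = 5) and CD150neg MPP (orange, n = 4) of 5A3+/del mice; gray lines join libraries of 1 mouse and bars give mean and SD. Gda, Aldh1a1 and Tek are higher in CD150lo HSC in 4 of 4 mice, and Sstr2, Flt3 and Satb1 are lower in 4 of 4.

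The genes that came next by p were mostly genes with a still higher level in CD150hi HSC, and they are named after their values were seen. Slc18a2, the vesicular monoamine transporter, was 52.3, 45.2, 61.4, 41.8 and 54.2 in CD150lo HSC against 38.7, 21.1, 25.8 and 27.1 in CD150neg MPP (difference 0.82 ± 0.14, adjusted p = 0.0933). Aldh1a1, a retinaldehyde dehydrogenase used as a stem cell marker, was 5.38, 5.47, 9.01, 8.69 and 11.7 against 0.603, 3.09, 3.51 and 3.74 (1.33 ± 0.25, adjusted p = 0.103). Both genes were separated between the populations, and in CD150hi HSC they stood at 85.1 ± 12.5 and 55.2 ± 10.2. Fam110c (0.91 ± 0.17) and the imprinted growth inhibitor Grb10 (0.74 ± 0.14) were also separated, each with an adjusted p of 0.0933. Slc18a2, Fam110c and Aldh1a1 were called without the block, at adjusted p values of 0.0422, 0.0422 and 0.0481. The remaining gene called without the block was Gm12104, an annotated pseudogene, with 0.118, 0.0158, 1.01, 0.246 and 0.198 in CD150lo HSC and 16.4, 4.58, 5.87 and 1.44 in CD150neg MPP. Reads of a pseudogene can be shared with its parent gene, so its level is uncertain. Among protein-coding genes with more in CD150neg MPP, Ankrd39 (−0.95 ± 0.20, limma adjusted p = 0.204) and Rftn2 (−0.58 ± 0.13, adjusted p = 0.207) came first after Sstr2. The immune receptor gene Btla (−1.04 ± 0.23, adjusted p = 0.207), Chdh, Irf2bp1, H2afy and the lymphocyte surface antigen gene Cd52 (−0.85 ± 0.20, adjusted p = 0.214) followed. All of these were separated between the populations. Btla and Cd52 had lower levels in CD150hi HSC, 0.0418 ± 0.0569 and 1.54 ± 0.914. Ankrd39 and Irf2bp1 did not, with means of 3.12 and 7.19 in CD150hi HSC against 2.53 and 6.00 in CD150lo HSC.

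Genes of the stem cell lists had positive differences more often than negative ones, but no member was called. Of 69 genes tested on the lists of HSC surface proteins, HSC transcription factors and other HSC genes, 52 had more in CD150lo HSC and 17 more in CD150neg MPP. Over all 15409 genes these counts were 7892 and 7517. An unadjusted p below 0.05 was reached by 22 members (31.9%) with more in CD150lo HSC and by 1 member with more in CD150neg MPP, against 2.94% and 3.24% of all genes. The libraries of the populations did not overlap for 6 members with more in CD150lo HSC and 0 with more in CD150neg MPP, against 0.902% and 1.05% of all genes. The median difference was 0.17, against 0.01 for all genes, and the medians of the 4 mice ranged from 0.09 to 0.27. The lists were written with earlier results of these data known, so their counts are descriptions. In bulk samples a smaller share of stem cells in the gate and less RNA per cell cannot be told apart.

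On the list of surface proteins, 17 of 21 genes had more in CD150lo HSC (median 0.13). Tek, the angiopoietin receptor TIE2 that holds stem cells in the niche, was 4.12, 4.74, 7.43, 5.91 and 5.09 in CD150lo HSC and 3.13, 2.29, 3.39 and 3.50 in CD150neg MPP, without overlap (0.69 ± 0.17, adjusted p = 0.285). Itgb3, the integrin beta 3 chain, had the largest difference of the list (0.93 ± 0.21, adjusted p = 0.207), with values of 1.40 to 7.91 and 0.673 to 3.03 that overlapped. The cell adhesion gene Esam (0.47 ± 0.13), the coreceptor gene Tgfbr3 (0.54 ± 0.19) and the lectin receptor gene Clec1a (0.76 ± 0.28) were the other members with an unadjusted p below 0.05. The abundant Ly6a, by contrast, differed by 0.11 ± 0.18 (adjusted p = 0.980), less than its spread.

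On the list of transcription factors, 17 of 25 genes had more in CD150lo HSC (median 0.11). Mllt3, a chromatin reader that maintains stem cells, was 23.4, 21.3, 20.8, 16.5 and 13.1 in CD150lo HSC against 12.3, 12.9, 13.3 and 12.8 in CD150neg MPP (0.62 ± 0.12, adjusted p = 0.129). Only mouse 5, which has no CD150neg library here, fell within the range of the CD150neg MPP. Gata2 (0.46 ± 0.15), Tal1 (0.33 ± 0.11), Mecom (0.27 ± 0.11) and Meis1 (0.23 ± 0.11), all factors that stem cells need, had unadjusted p values from 0.00674 to 0.0452, and Tal1 was separated. Among the members with the opposite sign, only Hoxb4 had an unadjusted p below 0.05 (−0.31 ± 0.15, unadjusted p = 0.0468, limma). The abundant Lmo2 (402 ± 68.6 and 383 ± 37.5) and Hlf (243 ± 33.0 and 250 ± 31.1) differed by less than their spread.

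The remaining HSC genes had the largest median of the 3 HSC lists, 0.34, with 18 of 23 genes higher in value in CD150lo HSC. Nupr1, a stress-induced nuclear protein, differed by 1.08 ± 0.32 and the sulfotransferase gene Sult1a1 by 0.86 ± 0.27, each with more in CD150lo HSC in 3 of 4 mice. Tgm2, a transglutaminase, was 10.1, 9.10, 9.46, 8.34 and 10.4 against 7.91, 6.37, 4.72 and 3.35, without overlap (0.66 ± 0.14, adjusted p = 0.154). Tgm2 was the only gene called in WT mice with the block (1.01, adjusted p = 0.00359). Apoe, the apolipoprotein E gene, was 5.83, 16.4, 13.3, 12.0 and 10.0 against 3.82, 7.87, 6.34 and 4.56 (0.92 ± 0.16, adjusted p = 0.0933). Apoe is also a macrophage transcript, and most macrophage genes moved in the same direction in these libraries, as described further on. Apoe was higher in CD150lo HSC in 4 of 4 mice. The macrophage sum was lower there in mouse 1 (24.9 against 51.9 FPKM as deposited) and higher in the other mice with both libraries. The part of macrophage transcripts in the Apoe difference was not tested. CD150hi HSC of 5A3+/del mice held 31.2 ± 5.52 of Apoe, with macrophage sums of 14.6 to 42.5. Mmrn1, which encodes multimerin, differed by 0.34 ± 0.12, whereas the abundant Ifitm1 (−0.06 ± 0.11) and Ifitm3 (0.12 ± 0.11) did not pass any threshold.

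**Figure D3:**
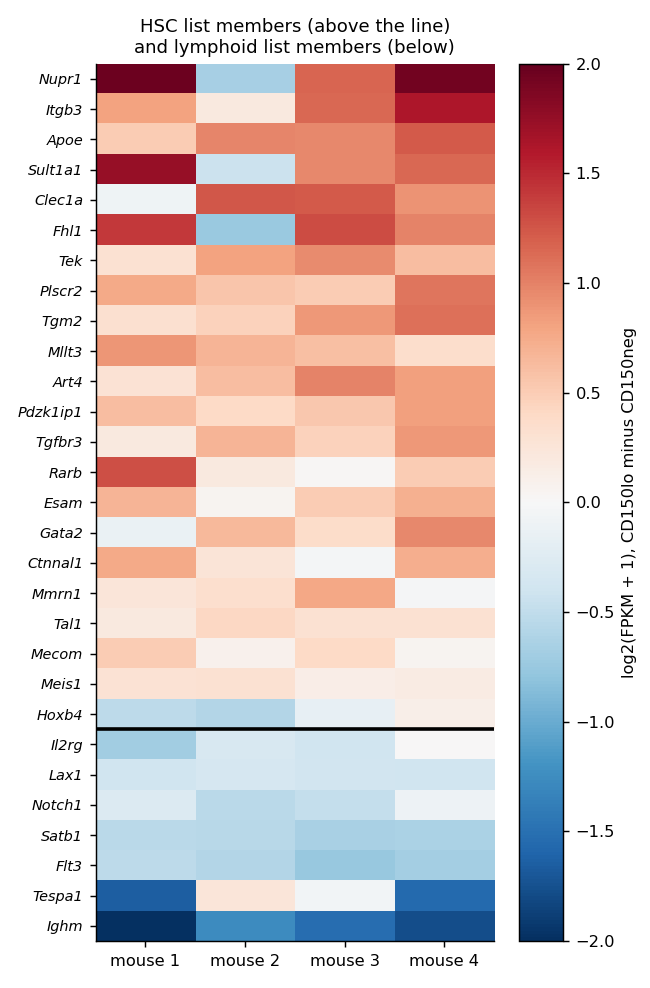
Difference in log2(FPKM + 1), CD150lo minus CD150neg, within each of the 4 mice with both libraries (columns), for members of the HSC lists and of the lymphoid list with an unadjusted p below 0.05 (rows); red is more in CD150lo HSC and blue more in CD150neg MPP. Rows were chosen by these values, and 1 of the 4 mice has the sign opposite to the others for Nupr1, Sult1a1, Fhl1, Clec1a, Gata2, Ctnnal1, Mmrn1, Hoxb4, Il2rg and Tespa1.

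Lymphoid genes lay on the other side. All 22 genes tested of the lymphoid list had the higher estimate in CD150neg MPP, with a median difference of −0.32 and mouse medians of −0.41 to −0.21. None was called, 8 (36.4%) had an unadjusted p below 0.05 against 3.24% of all genes, and 2 (9.09%) were separated between the populations against 1.05% of all genes. Flt3, the receptor for FLT3 ligand and the classical marker of lymphoid-primed progenitors, was 39.9, 26.0, 24.4, 25.8 and 36.8 in CD150lo HSC and 57.6, 39.5, 42.1 and 41.8 in CD150neg MPP. It was lower in CD150lo HSC in 4 of 4 mice, with a slight overlap of mouse 1 and the lowest CD150neg library (−0.67 ± 0.16, adjusted p = 0.285), and stood at 3.33 ± 1.11 in CD150hi HSC. Satb1, a chromatin organizer of lymphoid specification, was 8.99, 6.91, 6.98, 6.60 and 10.0 against 13.6, 10.6, 11.4 and 10.8, without overlap (−0.56 ± 0.13, adjusted p = 0.229).

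Further lymphoid members with an unadjusted p below 0.05 encoded receptors, signaling proteins and an immunoglobulin chain. Notch1, the receptor of T lineage commitment, was separated, at 5.47 to 7.40 against 7.90 to 8.41 (−0.38 ± 0.15). Tespa1 (−0.75 ± 0.26), Lax1 (−0.36 ± 0.16) and the common cytokine receptor chain Il2rg (−0.34 ± 0.14) overlapped between the populations. Ighm, the immunoglobulin mu constant region, was 7.72, 14.5, 15.0, 17.2 and 159 in CD150lo HSC and 33.6, 36.3, 44.9 and 61.4 in CD150neg MPP. Its estimate of −1.27 ± 0.51 comes with a single very high CD150lo library, that of mouse 5. The most abundant members, Gpr171 (−0.08 ± 0.13) and the Ikaros gene Ikzf1 (−0.11 ± 0.12), had small differences of the same sign. In WT mice 11 of 22 members had an unadjusted p below 0.05 with more in CD150neg MPP, against 4.41% of all genes, and the median was −0.37.

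**Figure D4:**
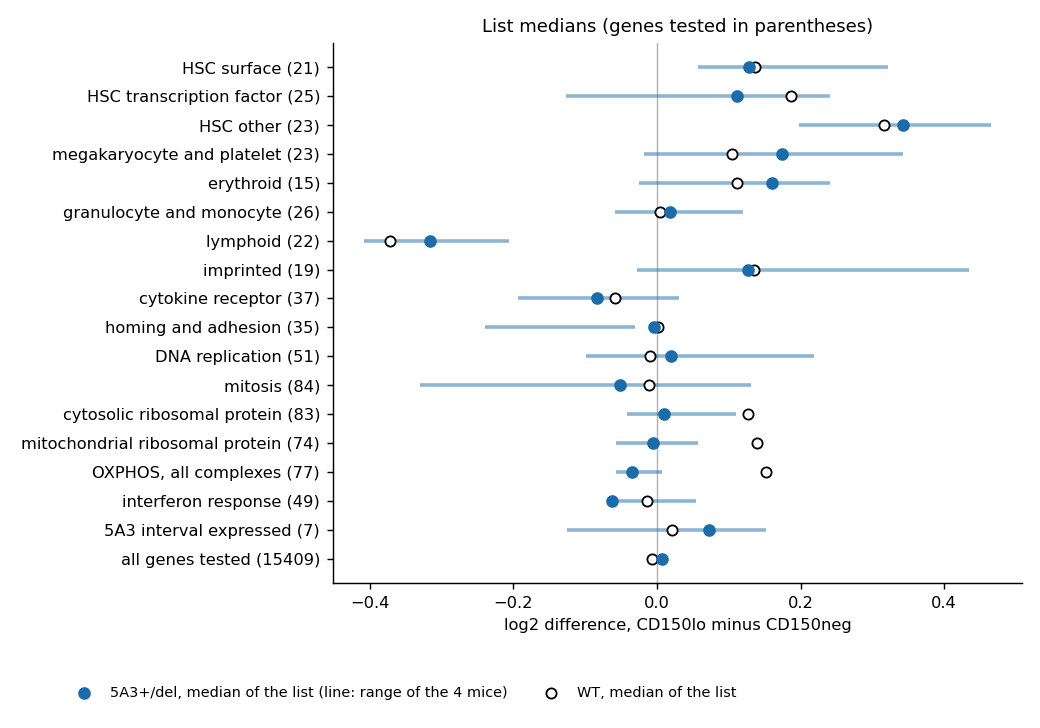
Median log2 difference (CD150lo minus CD150neg, x axis) of each gene list in 5A3+/del mice (blue, with a line for the range of the medians of the 4 mice) and in WT mice (open circles). In 5A3+/del mice the lymphoid list has the lowest median of those drawn, −0.32, and the list of other HSC genes the highest, 0.34; the ribosomal protein and OXPHOS lists lie near 0 in 5A3+/del mice and between 0.13 and 0.15 in WT mice.

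Genes of the other blood lineages showed no called member. On the megakaryocyte and platelet list, 21 of 23 genes had more in CD150lo HSC (median 0.17), against 7892 of all 15409 genes. Of these only Itgb3 and Mmrn1, which also stand on the HSC lists, had an unadjusted p below 0.05 (8.70%, against 2.94% of all genes). In the other direction 1 member reached that level (4.35%, against 3.24% of all genes), Plek, the platelet protein pleckstrin (−0.43 ± 0.15). The platelet chemokine gene Pf4 was 27.9 ± 7.20 and 17.9 ± 5.26 (adjusted p = 0.833), and the transcription factor gene Nfe2 was 56.5 ± 6.75 and 63.9 ± 13.9. On the erythroid list, 14 of 15 genes had more in CD150lo HSC (median 0.16) and 0 had an unadjusted p below 0.05, among them the carbonic anhydrase gene Car2 (0.12 ± 0.13). The granulocyte and monocyte list was evenly divided, with 14 of 26 genes above 0 and a median of 0.02. Mpo, which encodes myeloperoxidase, was 0.692, 3.35, 3.49, 1.59 and 2.76 against 1.98, 8.22, 5.74 and 2.30 (adjusted p = 0.953), and Calr, the most abundant member after Lyz2, differed by −0.12 ± 0.10.

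On the cytokine receptor list, differences ran in both directions. Of 37 genes tested, 3 with more in CD150lo HSC and 6 with more in CD150neg MPP had an unadjusted p below 0.05 (8.11% and 16.2%, against 2.94% and 3.24% of all genes), and 0 were called. The populations did not overlap for 2 and 4 members (5.41% and 10.8%, against 0.902% and 1.05% of all genes). The interleukin 6 receptor gene Il6ra was 10.0, 7.03, 12.2, 9.01 and 12.7 against 26.8, 18.4, 16.4 and 14.2, without overlap (−0.83 ± 0.22, adjusted p = 0.357). Il1r1, the interleukin 1 receptor (−0.50 ± 0.19), Il10ra, the interleukin 10 receptor (−0.70 ± 0.25), and Ifnar2, a chain of the type I interferon receptor (−0.40 ± 0.17), were likewise separated, and Flt3 and Il2rg completed the 6. On the other side stood Tek, Tgfbr3 and Il12rb1 (0.60 ± 0.17). Il12rb1 had the opposite sign in WT mice (−0.32), with an unadjusted p of 0.000671 and an adjusted p of 0.533 for the difference between genotypes. On the homing and adhesion list, 2 of 35 genes (5.71%) had an unadjusted p below 0.05 in each direction, against 2.94% and 3.24% of all genes, and the abundant Cd34, the antigen that marks progenitors, was 137, 139, 135, 142 and 143 against 201, 170, 167 and 168 (−0.36 ± 0.16, adjusted p = 0.791).

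Genes of the cell cycle had medians close to that of all genes. The median was 0.02 for 51 genes of DNA replication and −0.05 for 84 genes of mitosis, and no member of either list was called. The replication clamp gene Pcna was 64.1 ± 5.90 and 61.0 ± 11.4, and the helicase gene Mcm6 was 44.7 ± 6.53 and 44.0 ± 5.62. An unadjusted p below 0.05 with more in CD150neg MPP was seen for 6 mitotic genes (7.14%, against 3.24% of all genes), Cdca3, Ccnf, Cenpf, Kif2c, Gtse1 and Ube2c, all with a mean below 9 normalized FPKM, and for 0 in the other direction. The populations did not overlap for 2 mitotic genes with more in CD150neg MPP (2.38%, against 1.05% of all genes) and for 0 in the other direction. Ccnf, which encodes cyclin F, was 1 of them (1.17 to 2.37 against 2.70 to 3.62, −0.63 ± 0.21). The abundant Stmn1 (0.01 ± 0.12) and Smc4 (0.07 ± 0.17) differed by less than their spread. The medians of the mitosis list in the 4 mice ranged from −0.33 to 0.13. The G1 regulators had a median of −0.04 over 30 genes, with Ccnd2, cyclin D2, at 0.22 ± 0.11 and Cdk6 at 0.01 ± 0.14.

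Genes of protein synthesis and of the respiratory chain had medians close to 0 in 5A3+/del mice. The 83 cytosolic ribosomal protein genes had a median of 0.01, the 74 mitochondrial ribosomal protein genes −0.01, and the 77 genes of the OXPHOS complexes −0.03, with the mouse medians of OXPHOS between −0.06 and 0.01. In WT mice these medians were 0.13, 0.14 and 0.15. An unadjusted p below 0.05 with more in CD150lo HSC was reached by 23, 9 and 18 of these genes in WT mice (27.7%, 12.2% and 23.4%, against 5.52% of all genes) and by 1, 2 and 1 in 5A3+/del mice (1.20%, 2.70% and 1.30%, against 2.94% of all genes). The CD150lo minus CD150neg difference was lower in 5A3+/del than in WT mice for 11, 7 and 6 genes at an unadjusted p below 0.05. These were 13.3%, 9.46% and 7.79%, against 3.27% of all genes, and 0 were called. Atp5j, a subunit of ATP synthase, was the OXPHOS gene with an unadjusted p below 0.05 in 5A3+/del mice (0.32 ± 0.12), and the abundant Atp5b (0.03 ± 0.14) and Cox4i1 (0.02 ± 0.12) differed by less than their spread. Without normalization between libraries the OXPHOS median was −0.10. The median was 0.01 for 50 genes of ribosome biogenesis, among them Npm1 (0.07 ± 0.21) and Ncl (0.09 ± 0.13), and 0.01 for 42 translation factors.

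Further lists gave no called member. Glycolysis had a median of −0.03 over 27 genes, the interferon response −0.06 over 49, the immediate early genes 0.00 over 34, MHC class II −0.04 over 10, the Hox cluster 0.09 over 15 and the Gimap family −0.14 over 8. Among their abundant members, the interferon-induced Ifitm2 differed by −0.07 ± 0.13, Egr1, an early growth response factor, by −0.05 ± 0.16, Cd74, the invariant chain, by 0.13 ± 0.24, and Hoxa9 by −0.13 ± 0.19. On the imprinted list, 13 of 19 genes had more in CD150lo HSC (median 0.13), and 3 of them, Grb10, Sgce (0.52 ± 0.24) and the long non-coding RNA Meg3 (0.27 ± 0.12), had an unadjusted p below 0.05 (15.8%, against 2.94% of all genes).

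No tested gene of the deleted interval, of which both populations carry 1 copy, was called between the populations. Over the 7 genes of the interval listed as expressed the median was 0.07, with 0 at an unadjusted p below 0.05. Mll5, which the study lists under transcription, was 26.4 ± 3.32 and 25.9 ± 2.86 (0.00 ± 0.13). Armc10 was 11.7 ± 1.67 and 11.0 ± 1.11, and the chaperone gene Dnajc2 was 9.00 ± 1.66 and 7.53 ± 1.99. The proteasome subunit gene Psmc2 (−0.30 ± 0.18), the origin recognition gene Orc5 (−0.19 ± 0.16), the mitochondrial peptidase gene Pmpcb (0.16 ± 0.14) and the lipid enzyme gene Napepld (0.24 ± 0.20) had adjusted p values from 0.875 to 0.932. A further gene that the study places inside the deletion, 5031425E22Rik, did reach that level. The study describes it as a non-coding RNA, and the deposited data label it as protein coding. Its values were 5.30, 6.49, 3.67, 3.84 and 3.38 against 2.77, 1.62, 2.17 and 5.48 (0.57 ± 0.24, limma, unadjusted p = 0.0286, adjusted p = 0.764). The kinase gene Srpk2, which flanks the interval, differed by −0.02 ± 0.16.

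Macrophage transcripts summed higher in CD150lo HSC than in CD150neg MPP in 3 of 4 mice. A list of 15 macrophage genes, written after the values were seen, summed to 24.9, 70.5, 44.6, 75.6 and 78.0 FPKM as deposited in CD150lo HSC and to 51.9, 37.0, 20.5 and 22.4 in CD150neg MPP. Mouse 1 was low in CD150lo HSC and high in CD150neg MPP, against the other 3 pairs. Of 14 genes tested, 13 had more in CD150lo HSC, 9 (64.3%) with an unadjusted p below 0.05, against 2.94% of all genes, and 0 called. Members were picked with these values known, so a high share can come from the choice and the counts only describe the list. The complement gene C1qb was 0.0183, 5.88, 2.82, 13.5 and 5.86 against 2.48, 0.160, 0.00243 and 0.0157, the scavenger protein gene Cd5l was 0.391, 0.784, 1.33, 3.00 and 1.67 against at most 0.0481, and Vcam1 was 1.39, 5.57, 3.73, 6.85 and 8.71 against 2.18, 0.266, 0.118 and 0.285. The list median was 0.99 in 5A3+/del mice and 0.78 in WT mice. The part of these transcripts in the differences of Apoe and of the stem cell lists was not tested.

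**Figure D5:**
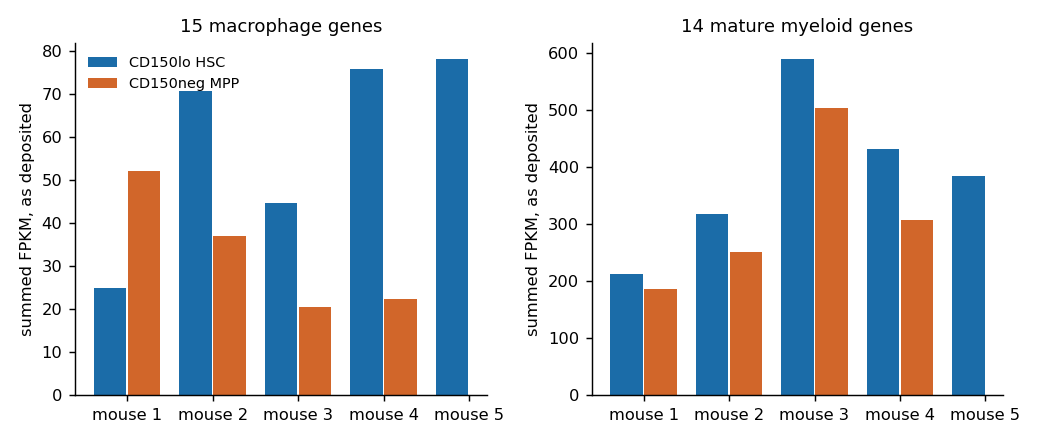
Summed deposited FPKM (y axis, from 0) of 15 macrophage genes (left) and 14 mature myeloid genes (right) in each library of 5A3+/del CD150lo HSC (blue) and CD150neg MPP (orange), by mouse. Macrophage sums are higher in CD150lo HSC in mice 2, 3 and 4 and lower in mouse 1; myeloid sums follow the mouse in both populations.

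Of the other cell types, mature myeloid genes had the highest sums. A large part of them came from Lyz2 alone, with 184 to 254 FPKM as deposited in CD150lo HSC and 171 to 240 in CD150neg MPP. The 14 mature myeloid genes summed to 212 to 588 FPKM in CD150lo HSC and 186 to 503 in CD150neg MPP, and the neutrophil gene S100a8 was 12.0, 33.3, 180, 75.0 and 64.1 against 2.31, 23.6, 96.9 and 47.2, higher in CD150lo HSC in 4 of 4 mice (adjusted p = 0.929). Retnlg was at or under 3 fragments in all 9 libraries. B cell genes summed to 8.41 to 15.8 and 10.7 to 23.2 with Ms4a1 at or under 3 fragments, and T and NK cell genes to 3.30 to 14.5 and 4.44 to 9.79 with Cd3g, Cd8b1 and Ncr1 at or under 3 fragments. Erythroblast genes summed to 41.7 to 79.5 and 29.5 to 70.8, megakaryocyte genes to 74.1 to 90.4 and 55.1 to 82.3, endothelial and stromal genes to 10.8 to 18.8 and 4.83 to 13.8, and mast cell and basophil genes to 0.637 to 4.46 and 1.04 to 4.22. None of these lists had a called member, and their part in the results was not tested.

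The same comparison in WT mice gave 1 called gene of 15409 (0.00649%) with the block and 29 without it. At an unadjusted p below 0.05, 851 genes (5.52%) had more in WT CD150lo HSC and 680 (4.41%) more in WT CD150neg MPP. The test of whether the difference between the populations itself differed between genotypes called 0 genes (0%), with 875 genes at an unadjusted p below 0.05 and a smallest adjusted p of 0.329. That gene was Gstm5, a glutathione transferase, named after its values were seen: it was 7.49, 5.24, 3.91, 6.52 and 6.81 in CD150lo HSC and 16.7, 11.8, 8.05 and 8.06 in CD150neg MPP of 5A3+/del mice, a difference of −0.75, against 0.72 in WT mice. The medians of the stem cell and lymphoid lists were 0.17 and −0.32 in 5A3+/del mice and 0.22 and −0.37 in WT mice, and no member was called different between genotypes.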

How the data were processed

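RNA of the sorted populations, CD150hi and CD150lo HSC and CD150neg MPP (called HSC in the labels) was amplified from 10 ng, sequenced and mapped to mm9; the submitters' processing notes name Bowtie 0.12.2 and HTSeq. The authors deposited FPKM for 30025 genes in 29 libraries, before normalization between samples. Fragments per library were recovered from the steps in low FPKM values; counts of amplified fragments cover counting error only.

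From the deposited FPKM, the 15409 genes that reached 1 in 4 or more libraries were tested, and log2(FPKM + 1) was quantile normalized over 29 libraries. limma 3.58.1 (R 4.3.3) was fitted to all libraries with the mouse (10) as a block, since the description label gives the populations of an animal the same code; tests were two-sided, Benjamini-Hochberg adjusted, threshold 0.05. The deviations of same-mouse libraries correlated at 0.0713, 0.103, 0.0863 and −0.0132 in mice 1 to 4. The highest correlation of the CD150lo library with a CD150neg library of another mouse was −0.00565, −0.00764, 0.0715 and 0.0245. The same-mouse value was thus the lower in mouse 4. Mice are the replicates. Steps were tested on simulated data, and 20 alternatives are given in the closing section.

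The genes named were up to 15 protein-coding genes per direction that were called and separated, up to 5 called members of each list or, where fewer than 2 passed, the 2 most abundant, the interval genes and Slamf1; other names were chosen after their values were seen, and some members counted in the lists are not reported here by name. The comparison, members and lists were chosen with earlier results of these data known. Positions come from GENCODE for mm9 (97.52% of genes matched).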

Additional observations from a re-analysis of the deposited data

Results flagged for a closer look

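A library that stood far from the others of its population, by Dixon's criterion at the 95% level, was found in 17 of 192 sets of values tested, over the genes named and the library measures; chance gives about 1 in 20, or 9.6. In CD150neg MPP, 6 of the 17 came from the library of mouse 1, which was high for the stem cell gene Clec1a (4.85, others 1.42 to 1.5), for the progenitor genes Flt3 (57.6, others 39.5 to 42.1) and Cd34 (201, others 167 to 170), for Hoxa9 (23.2, others 20.3 to 20.7), and, among the macrophage genes, for C1qb (2.48, others at most 0.160) and Vcam1 (2.18, others 0.118 to 0.285). Without mouse 1 the adjusted p of Gda and of Sstr2 exceeded 0.05.

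Mouse 5 of CD150lo HSC was high for Ighm (159, others 7.72 to 17.2) and Itga2b (2.96, others 1.73 to 1.96). Mouse 2 was high for Il1r1 in both CD150lo HSC (19.1, others 13.3 to 14.9) and CD150neg MPP (24.2, others 20.1 to 20.2), high for Kit in CD150lo HSC (208, others 154 to 170) and low for Atp5j in CD150neg MPP (22, others 28.0 to 28.3). Single sets were found for Gm12104 in CD150lo HSC of mouse 3 (1.01, others at most 0.246), Ly6a in CD150neg MPP of mouse 4 (127, others 206 to 219), Ifnar2 in CD150lo HSC of mouse 4 (16.0, others 21.7 to 23.3), Napepld in CD150neg MPP of mouse 3 (0.453, others 0.281 to 0.305) and Cd74 in CD150lo HSC of mouse 1 (114, others 53.5 to 64.7). All values are normalized FPKM.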

How the results depend on the processing

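The 2 calls of 5A3+/del mice depended on the processing. Without the replicate block 6 genes were called (4 higher in CD150lo HSC, 2 higher in CD150neg MPP), and with the block as a random effect 7 (5 and 2). With the 9 libraries alone, with or without the replicate block, and with a pseudocount of 0.1, 0 were called (0 and 0). The filter over the 9 libraries gave 6 (3 and 3), no filter and a trended robust prior each 2 (2 and 0), and median-ratio scaling and no normalization each 1 (1 and 0). Leaving out a 5A3+/del mouse gave 0 to 3 genes (0 to 1 higher in CD150lo HSC, 0 to 2 higher in CD150neg MPP), with 0 without mouse 1 or mouse 2. Leaving out a WT mouse, an alternative added after the values were seen, gave 0 to 2 (0 to 1 in each direction), with 0 without WT mouse 3. In WT mice 29 genes were called without the replicate block, 65 with it as a random effect, 7 with a pseudocount of 0.1, 8 with no filter and 62 with the trended prior, and leaving out a mouse gave 1 to 7 for 5A3+/del mice and 0 to 53 for WT mice (53 without WT mouse 5, 0 without WT mouse 2). Genes called different between genotypes numbered 1 with no filter and 0 to 1 when a mouse was left out (1 without WT mouse 5). The cause of these shifts was not tested, and leaving out libraries also lowered their number.

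The 22 HSC list members with an unadjusted p below 0.05 became 12 with the 9 libraries and the block, and 16 to 24 when a mouse was left out. The 8 lymphoid members became 3 without the replicate block, 4 with the 9 libraries and no block, and 4 to 9 when a mouse was left out, with 4 without mouse 3 and 5 without mouse 1 or mouse 2. The HSC and lymphoid medians kept their sign, at 0.15 to 0.20 and −0.40 to −0.24 when a 5A3+/del mouse was left out. Of 1856 values of single genes under the 20 alternatives, 21 lost a call and 13 gained one, and none that was called changed sign. Sstr2 in CD150lo HSC, at 3 to 79 fragments, is the called value that depth limits most.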
